A study of Caenorhabditis elegans with 15 samples.

Results

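Transcripts of 10 Argonaute genes were measured in early embryos of the nematode Caenorhabditis elegans. The genes were csr-1, wago-1, wago-4, hrde-1, nrde-3, prg-1, ergo-1, rde-1, alg-1 and alg-2. They were picked by symbol, through WormBase identifiers, from a table of 20392 genes, and all 10 were present. The 15 libraries formed 5 groups of 3 independent replicates. WT was the Bristol strain N2, met-2Δ carried the deletion allele n4256 of met-2, and met-2-CD carried the point mutation gw1660, which leaves a catalytically deficient MET-2 protein. These 3 groups stayed at 20 °C. Cultures of WT and of met-2Δ were also exposed to 37 °C for 1 h (heat stress, HS) before RNA extraction. All embryos were collected before the bean stage, each mutant group stands for a single allele, and the time from larval synchronization to harvest depended on the strain. Heat-treated met-2-CD embryos were not analysed here.

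Argonaute proteins bind small RNAs and use them as guides to find matching transcripts. In worms, primary Argonautes carry piRNAs, microRNAs or siRNAs cut from double-stranded RNA, and many of their targets then template secondary siRNAs that load onto a large worm-specific family, the WAGO proteins. Some WAGO proteins enter the nucleus and direct methylation of histone H3 on lysine residues of target chromatin, whereas CSR-1 binds siRNAs against genes that the germline expresses. MET-2 is the worm relative of SETDB1, a methyltransferase for the same histone, and the question here is how far transcripts of these small-RNA effectors differ between MET-2 genotypes and after heat.

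Library totals ran from 45.83 to 58.84 M counts for WT at 20 °C, from 38.14 to 48.56 M for met-2-CD, and from 16.15 to 27.13 M in the other 3 groups. The met-2 transcript stood at 313 ± 6.27 CPM (read counts scaled to a common library size with TMM factors, mean ± SD, n = 3 in every group) in WT and 295 ± 14 CPM in met-2-CD, against 33.6 ± 0.919 CPM in met-2Δ. The WT libraries at 20 °C stood apart. In these 3 libraries 13 genes had at most 3 counts while every other library had at least 20, 15 genes showed the reverse, and no other group had any such gene. All 14 early embryo markers were detected in every group, with summed levels between 2210 and 3720 CPM. Single markers moved with the groups. Against WT at 20 °C, 7 of the 14 were lower and 1 higher (pos-1, 0.41) in met-2Δ (median log2FC -0.20), 9 lower and 0 higher in met-2-CD by edgeR (-0.70), and 8 lower and 0 higher in WT after HS (-0.68). Against met-2-CD, 5 were higher and 0 lower in met-2Δ (0.38). Such calls were common. In the contrasts with WT, in the order above, 27.5%, 24.9% and 35.6% of all 15471 genes tested were lower. Among the 4049 genes with a mean of at least 55.2 CPM, the shares were 44.7%, 40.1% and 60.0%. Against met-2-CD, 9.58% of all genes and 8.22% of the 4049 were higher in met-2Δ. The largest falls were those of med-2, a zygotic gene at 2.27 CPM in WT that specifies mesendoderm (-2.39 in met-2Δ and -3.35 in WT after HS). Markers at higher levels in WT fell in all 3 contrasts too. In met-2Δ, met-2-CD and WT after HS, in this order, end-1 (35.8 CPM in WT) changed by -1.72, -1.55 and -2.36. In the same order tbx-37 (25.6 CPM) changed by -1.04, -1.02 and -1.52, and end-3 (11.2 CPM) by -1.34, -1.35 and -1.97. The summed level of 5 muscle genes was 63.5 to 160 CPM in WT at 20 °C, 374 to 811 CPM in met-2-CD, 472 to 683 CPM in met-2Δ, 1790 to 2800 CPM in WT after HS and 1490 to 1820 CPM in met-2Δ after HS. The part of these shifts in the results below was not tested. Of the markers of other tissues, 5 yolk genes of the adult intestine summed to 0.25 to 1.83 CPM at 20 °C and 2.63 to 14.9 CPM after HS. The 7 sperm genes summed to 2.3 to 5.06 CPM and 8.53 to 17.0 CPM, with msp-19 at 0 in every group. The 6 genes of the adult germline lay between 276 and 490 CPM in all groups, highest in met-2Δ at 20 °C. In these bulk samples, fewer cells of a type and less RNA per cell cannot be told apart.

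All 10 Argonaute transcripts were present in every library, with a lowest count of 853 for wago-4. Levels of different genes are compared per kb of exon. In WT at 20 °C, nrde-3 had the highest level at 175 ± 10.9 CPM per kb, followed by wago-1 (149 ± 17.6), alg-2 (132 ± 11.2) and hrde-1 (118 ± 13.9). Neighbours in this order overlapped between libraries, so the order within each neighbouring pair is not resolved, whereas genes further apart did not overlap. Below hrde-1 came ergo-1 at 94.3 ± 8.26, prg-1 at 65.8 ± 7.79, rde-1 at 33.1 ± 1.11, alg-1 at 25.7 ± 1.32, csr-1 at 15.2 ± 2.02 and wago-4 at 11.1 ± 1.55 CPM per kb. Here the libraries of neighbours did not overlap. Per kb, nrde-3 stood above 94.7% of 15156 genes with a known exon length, and wago-4 above 55.9%.

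**Figure D1:**
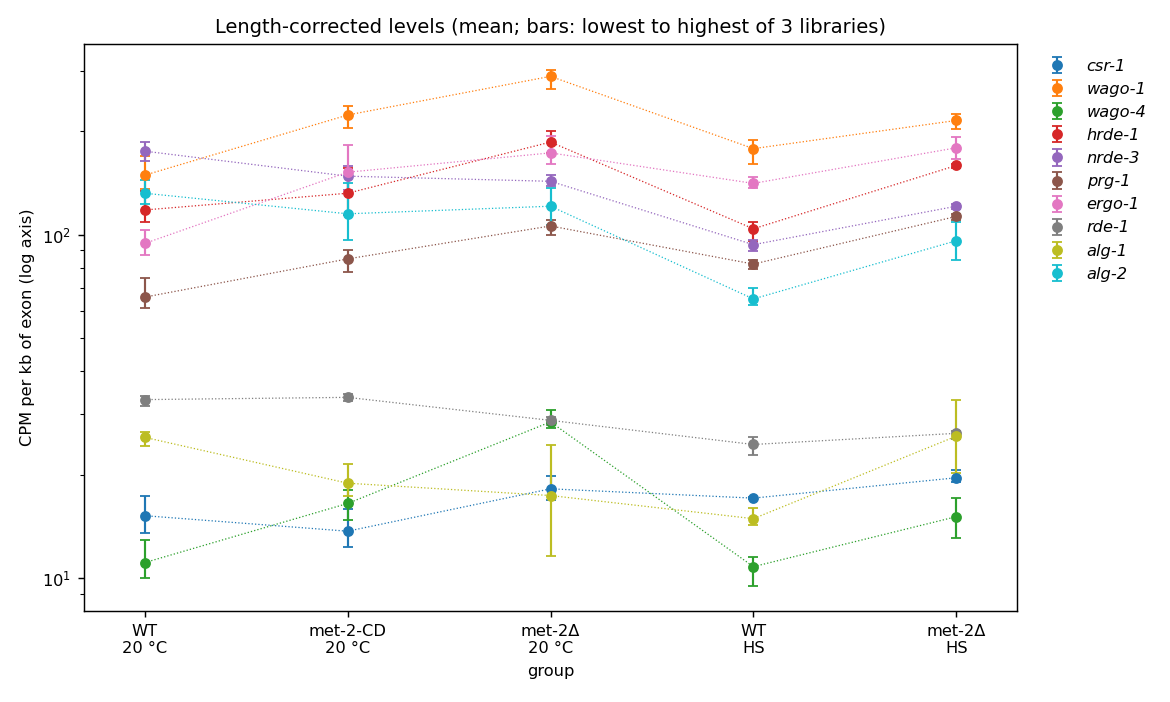
Level of each Argonaute transcript in CPM per kb of exon (vertical log axis) in the 5 groups (horizontal axis); points are means and bars run from the lowest to the highest of 3 libraries. In all groups the libraries of 6 genes lie between 61.0 and 302 CPM per kb and those of the other 4 between 9.52 and 34.3, and wago-1 is first in every group but WT at 20 °C.

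The order changed in the other groups. The wago-1 mean was first in met-2-CD (223 CPM per kb), met-2Δ (289), WT after HS (178) and met-2Δ after HS (215), and in these 4 groups its libraries did not overlap those of the gene ranked next. The mean of nrde-3 was first in WT at 20 °C, held rank 3 in met-2-CD (148) and rank 4 in met-2Δ (143), in WT after HS (93.5) and in met-2Δ after HS (121). Its libraries overlapped those of wago-1 in WT at 20 °C, of ergo-1, hrde-1 and alg-2 in met-2-CD, and of hrde-1 in WT after HS. Summed over all 10 genes, the level at 20 °C was 2911 ± 232 CPM in WT and 3820 ± 281 CPM in met-2Δ. The met-2-CD mean lay between them at 3259 ± 377 CPM. Its libraries (2977 to 3688 CPM) overlapped those of WT (2748 to 3176) and of met-2Δ (3620 to 4141), so its place is not resolved. After HS the summed level was 2513 ± 97.1 CPM in WT and 3369 ± 152 CPM in met-2Δ.

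At 20 °C, 5 of the 10 Argonaute transcripts were higher in met-2Δ than in WT and 2 were lower, by an edgeR FDR below 0.01. The higher ones were wago-4, wago-1, ergo-1, prg-1 and hrde-1, and the lower ones were nrde-3 and rde-1. Only wago-4 changed by more than 2-fold. Over all 15471 genes tested, 28.2% were higher and 27.5% lower in this contrast, so calls were common. Among the 4049 genes expressed at or above the mean of the lowest Argonaute (55.2 CPM), 20.9% were higher and 44.7% lower. The median log2FC was 0.46 over the Argonautes, 0.07 over all genes and -0.18 over the 4049. In met-2-CD, 4 Argonautes were higher (wago-1, wago-4, ergo-1 and prg-1) and 1 was lower (nrde-3), against 26.5% and 24.9% of all genes. Of the 4049 genes, 24.8% were higher and 40.1% lower in met-2-CD. The WT libraries serve both of these contrasts. With library totals alone as the scaling, the median of all genes moved up by 0.198 for met-2Δ minus WT and by 0.129 for met-2-CD minus WT, no Argonaute was lower in either mutant, and 6 were higher in met-2Δ, csr-1 being added. Over all genes this scaling called 5513 higher and 3128 lower in met-2Δ, where TMM called 4362 and 4262.

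**Figure D2:**
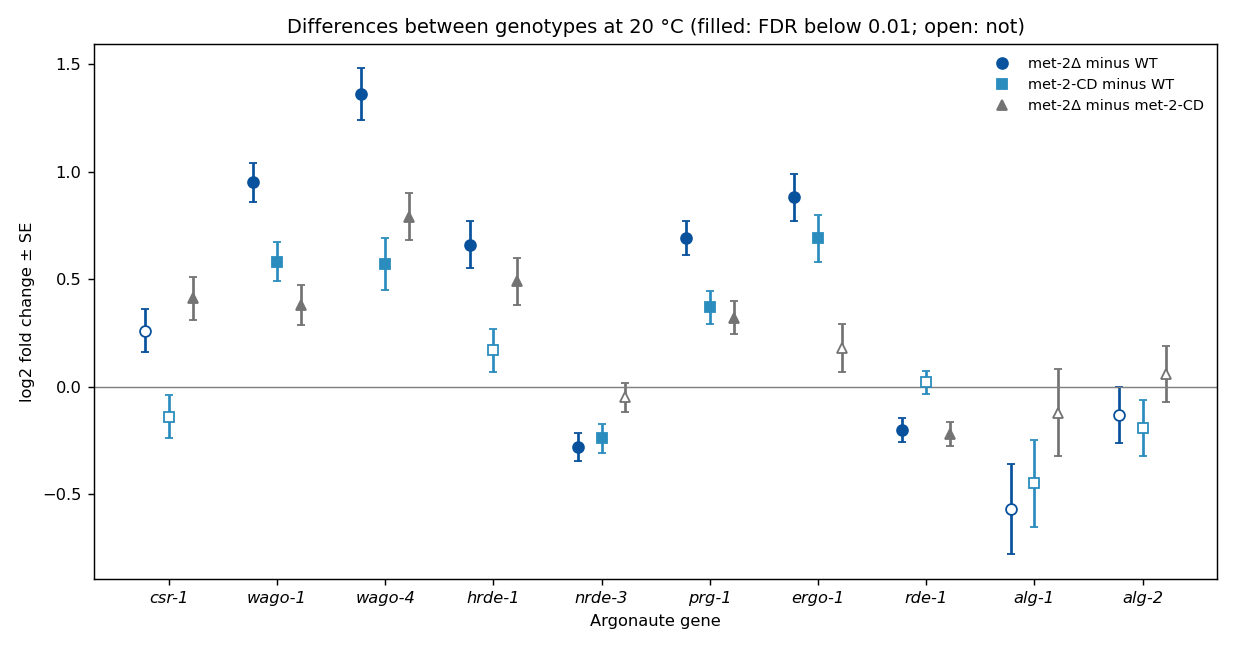
Difference in log2 level between genotypes at 20 °C (vertical axis, ± SE) for each Argonaute gene (horizontal axis); circles are met-2Δ minus WT, squares met-2-CD minus WT and triangles met-2Δ minus met-2-CD, filled where the edgeR FDR was below 0.01. The circle of wago-4 is the highest point at 1.36, and nrde-3 lies below 0 in all 3 contrasts.

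**Figure D3:**
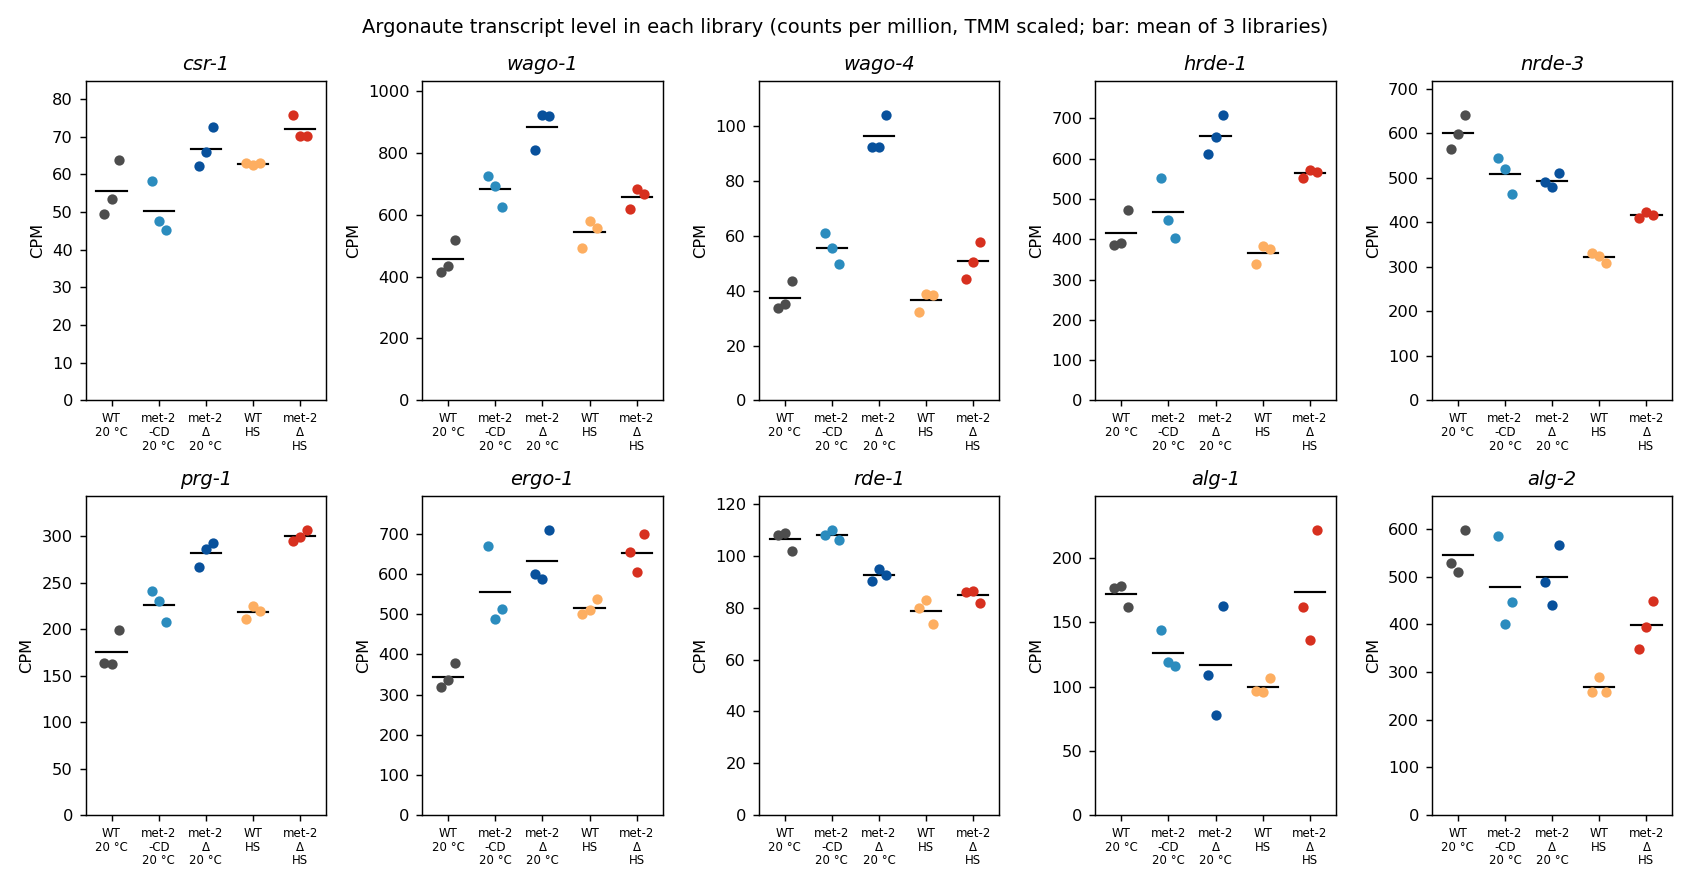
Level of each Argonaute transcript in CPM (vertical axis, from 0, a separate scale for each gene) in each of the 15 libraries, by group (horizontal axis); points are libraries and bars are means of 3. For wago-4 the 3 met-2Δ libraries at 20 °C lie at 92.4 to 104 CPM, above all 12 others, and alg-1 shows the widest spread within met-2Δ.

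WAGO-4 is a cytoplasmic germline Argonaute that takes part in the inheritance of RNAi. Its gene, wago-4 (WBGene00010263; chromosome II, 12919551 to 12923377, WBcel235, plus strand), gave 33.8, 35.1 and 43.4 CPM in the WT libraries at 20 °C, 61.0, 55.6 and 49.8 CPM in met-2-CD, and 92.4, 92.4 and 104 CPM in met-2Δ. The 3 genotypes did not overlap, with met-2-CD between the others. The difference of met-2Δ from WT was 1.36 ± 0.12 (log2FC ± SE, edgeR FDR 6.97e-08), a 2.57-fold higher level. The met-2-CD level was 1.48-fold above WT (log2FC 0.57 ± 0.12, FDR 0.000492). Between the mutants the transcript was 1.73-fold higher in met-2Δ (log2FC 0.79 ± 0.11, FDR 0.000182), and this call held in every alternative tried.

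WAGO-1, which binds secondary siRNAs against transposons and other silenced genes in germ granules, is encoded by wago-1 (WBGene00011061; chromosome I, 7235384 to 7238792, plus strand). It stood at 416, 435 and 517 CPM in WT, 724, 694 and 626 CPM in met-2-CD, and 809, 921 and 919 CPM in met-2Δ. Again no library of a genotype overlapped another genotype. The log2FC was 0.95 ± 0.092 in met-2Δ (edgeR FDR 2.53e-07, 1.94-fold) and 0.58 ± 0.091 in met-2-CD (FDR 4.93e-05).

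CSR-1 is the Argonaute of germline-expressed genes and a slicer required for viability. Its transcript (csr-1, WBGene00017641; chromosome IV, 7957267 to 7962157, plus strand) was at 49.5, 53.5 and 63.9 CPM in WT, 58.3, 47.6 and 45.2 CPM in met-2-CD, and 62.1, 65.9 and 72.6 CPM in met-2Δ. Both mutants overlapped WT, and neither passed the test (log2FC 0.26 ± 0.1, FDR 0.03 in met-2Δ; -0.14 ± 0.1, FDR 0.225 in met-2-CD). The met-2Δ difference passed without WT library c (0.32, FDR 0.00898) and with library totals alone (0.46, FDR 0.000267). In the annotation an exon of csr-1 overlaps frpr-10, a gene on the same strand with 0.0564 to 0.42 CPM.

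HRDE-1 is the nuclear Argonaute of the germline, needed for heritable silencing in the nucleus. The hrde-1 gene (WBGene00007624; chromosome III, 4172337 to 4176159, minus strand) gave 385, 390 and 472 CPM in WT, 552, 447 and 403 CPM in met-2-CD, and 611, 653 and 708 CPM in met-2Δ. The met-2Δ libraries lay above all others at 20 °C, whereas met-2-CD overlapped WT. The level in met-2Δ was 1.58-fold that of WT (log2FC 0.66 ± 0.11, FDR 5.06e-05). In met-2-CD the log2FC of 0.17 ± 0.1 did not pass (FDR 0.175).

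NRDE-3 carries secondary siRNAs into nuclei of somatic cells. Its transcript (nrde-3, WBGene00019862; chromosome X, 372235 to 376900, plus strand) was measured at 566, 598 and 641 CPM in WT, 545, 520 and 465 CPM in met-2-CD, and 490, 480 and 512 CPM in met-2Δ. All 6 mutant libraries lay below all WT libraries. The differences were small, with a log2FC of -0.28 ± 0.066 in met-2Δ (FDR 0.00135) and -0.24 ± 0.066 in met-2-CD (FDR 0.00521). With scaling by library totals alone both calls were lost (log2FC -0.09, FDR 0.188, and -0.11, FDR 0.0999). Both were lost as well with only the groups compared in the fit (-0.26, FDR 0.0116, and -0.23, FDR 0.0505). The met-2-CD call was also lost without WT library c (FDR 0.0166) or met-2-CD library c (FDR 0.0164).

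PRG-1 is the Piwi protein of the worm and binds piRNAs. The prg-1 gene (WBGene00004178; chromosome I, 7585329 to 7588367, minus strand) had 164, 163 and 199 CPM in WT, 241, 231 and 208 CPM in met-2-CD, and 267, 286 and 293 CPM in met-2Δ, with no overlap between genotypes. The log2FC was 0.69 ± 0.078 in met-2Δ (FDR 1.51e-06, 1.61-fold) and 0.37 ± 0.077 in met-2-CD (FDR 0.000663). The met-2-CD call was lost without WT library a (log2FC 0.29, FDR 0.0109) or b (FDR 0.0106).

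ERGO-1 binds primary siRNAs that depend on the ERI complex in oocytes and embryos. Its gene (ergo-1, WBGene00019971; chromosome V, 1008803 to 1018352, plus strand) gave 320, 336 and 378 CPM in WT, 670, 488 and 512 CPM in met-2-CD, and 600, 588 and 710 CPM in met-2Δ. Both mutants lay wholly above WT and overlapped each other. The transcript was 1.84-fold higher in met-2Δ (log2FC 0.88 ± 0.11, FDR 4.71e-06) and 1.62-fold higher in met-2-CD (log2FC 0.69 ± 0.11, FDR 5.47e-05).

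RDE-1 is the primary Argonaute of RNAi triggered by external double-stranded RNA. The rde-1 gene (WBGene00004323; chromosome V, 9987916 to 9991642, minus strand) stood at 108, 109 and 102 CPM in WT, 108, 110 and 106 CPM in met-2-CD, and 90.2, 94.9 and 92.5 CPM in met-2Δ. The met-2Δ libraries lay below all others at 20 °C. Its log2FC in met-2Δ was -0.20 ± 0.055 (FDR 0.00453). This call was lost without met-2Δ library c (FDR 0.0148), and with library totals alone the log2FC was -0.00 (FDR 0.961).

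ALG-1 and ALG-2 are the Argonautes of the microRNA pathway and are close in sequence. For alg-1 (WBGene00000105; chromosome X, 13949110 to 13956261, plus strand) the values were 177, 178 and 162 CPM in WT, 144, 119 and 116 CPM in met-2-CD, and 109, 77.8 and 163 CPM in met-2Δ. The SD of met-2Δ was 37.1% of its mean, the widest spread of any of the 10 genes in any group. The log2FC of -0.57 ± 0.21 in met-2Δ did not pass with edgeR (FDR 0.0238), but the DESeq2 Wald test called it lower (-0.61, adjusted p 0.00722), and without met-2Δ library c the edgeR value was -0.89 (FDR 0.000547). In met-2-CD all libraries lay below WT, with a log2FC of -0.45 ± 0.2 that did not pass (FDR 0.0667). With only the groups compared in the fit, this met-2-CD difference passed (-0.44, FDR 0.0041). For alg-2 (WBGene00000106; chromosome II, 873212 to 879885, plus strand) the values were 529, 510 and 598 CPM in WT, 585, 401 and 446 CPM in met-2-CD, and 489, 441 and 567 CPM in met-2Δ. The genotypes overlapped and no contrast at 20 °C passed (log2FC -0.13 ± 0.13 in met-2Δ, FDR 0.396, and -0.19 ± 0.13 in met-2-CD, FDR 0.206). Without met-2-CD library a the met-2-CD value was -0.39 and passed (FDR 0.00643). Reads that align equally to both genes have no unique alignment, so the counts of this pair depend on their distinct parts. K02B9.10, which the annotation places on an alg-1 exon, has no row in the table.

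The deletion and the catalytic mutant were then set against each other, a contrast that takes no level from WT, although the WT libraries share its filter, scaling and estimate of the spread. Here met-2Δ had 5 Argonautes at a higher level (wago-4, hrde-1, csr-1, wago-1 and prg-1) and 1 at a lower level (rde-1), where 9.58% of all genes were higher and 11% lower. Of the 4049 genes at or above 55.2 CPM, 8.22% were higher and 19.1% lower. With library totals alone, rde-1 was not called (log2FC -0.15, FDR 0.0566), and over all genes the split was 1970 higher and 1001 lower in place of 1482 and 1696. Beside wago-4, the largest of these differences was that of hrde-1 at 0.49 ± 0.11 (edgeR FDR 0.00254), followed by csr-1 at 0.41 ± 0.1 (FDR 0.00602), wago-1 at 0.38 ± 0.091 (FDR 0.00547) and prg-1 at 0.32 ± 0.077 (FDR 0.00569). The log2FC of rde-1 was -0.22 ± 0.055 (FDR 0.00614). For all 6 genes the mutants' libraries did not overlap, a property that was not counted over all genes. Of ergo-1, nrde-3, alg-1 and alg-2, none passed, with log2FC between -0.12 and 0.18. Apart from wago-4, each call was lost when single libraries were left out. Without met-2-CD library b, only wago-4 remained (FDR of csr-1 0.0313, hrde-1 0.0147, wago-1 0.0172, prg-1 0.0162 and rde-1 0.0256), and without met-2Δ library c the corresponding values were 0.0338, 0.0141, 0.0246, 0.0268 and 0.0195. Leaving out met-2-CD library c, met-2Δ library b, met-2Δ library a or WT library b also ended 4, 5, 3 and 1 of these calls.

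In WT, 2 transcripts rose after 1 h at 37 °C (ergo-1 and prg-1), 4 fell (alg-2, nrde-3, alg-1 and rde-1) and the other 4 did not pass, where 44% of all genes were higher and 35.6% lower. Among the 4049 genes at or above 55.2 CPM, 18.2% rose and 60.0% fell. The median log2FC over the Argonautes was -0.11, over all genes 0.18 and over the 4049 genes -0.41. In met-2Δ, 0 Argonautes rose by edgeR or by DESeq2 (1, alg-1, at an unadjusted p below 0.05) and 3 fell (wago-4, wago-1 and nrde-3), against 17.3% and 21.2% of all genes. Of the 4049 genes, 9.76% rose and 32.4% fell in met-2Δ, so the share of falls was near that of the Argonautes. With library totals alone, which moved the median of all genes by 0.227, 4 rose and 3 fell in WT, with csr-1 and wago-1 added (log2FC 0.41 and 0.48) and alg-1 lost (-0.56, FDR 0.014).

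**Figure D4:**
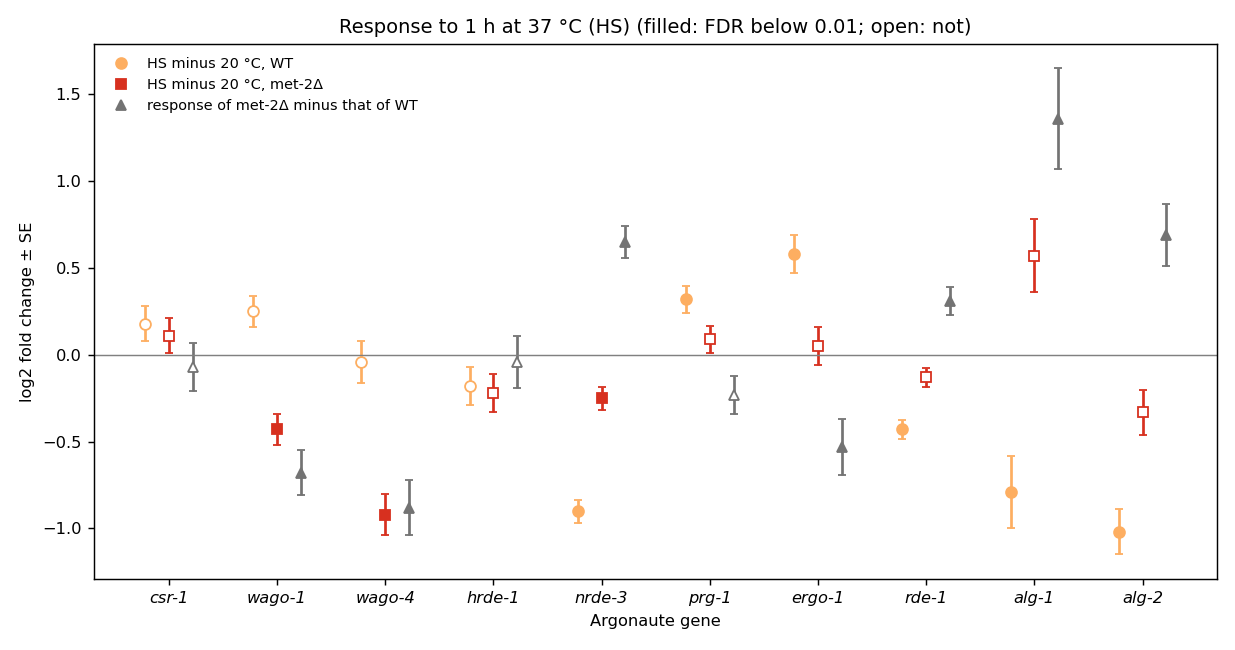
Change in log2 level after 1 h at 37 °C (vertical axis, ± SE) for each Argonaute gene (horizontal axis); circles are WT, squares met-2Δ and triangles the difference between these responses, filled where the edgeR FDR was below 0.01. The microRNA Argonautes and nrde-3 have the lowest circles (alg-2 at -1.02, nrde-3 at -0.90 and alg-1 at -0.79), whereas the lowest square is that of wago-4 at -0.92.

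The WT libraries at 20 °C that enter these values stand apart, so the heat contrast was also computed with met-2-CD at 20 °C in their place, which is a mutant baseline. The falls of alg-2 (log2FC -0.83, edgeR FDR 3.59e-05), nrde-3 (-0.66, FDR 2.93e-07) and rde-1 (-0.45, FDR 2.46e-06) kept their call, whereas alg-1 did not (-0.34, FDR 0.143). The rises were not seen against this baseline, with ergo-1 at -0.11 (FDR 0.374) and prg-1 at -0.05 (FDR 0.57). For wago-1 the sign turned to -0.33 (FDR 0.00423). Falls of wago-4 (-0.61, FDR 0.000214) and hrde-1 (-0.35, FDR 0.00683) and a rise of csr-1 (0.32, FDR 0.00948) were called with this baseline, so that 6 Argonautes fell and 1 rose. Of all 15471 genes, 4636 fell and 5564 rose against it.

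The microRNA Argonaute alg-2 fell the furthest in WT. Its libraries moved from 510 to 598 CPM at 20 °C to 259, 289 and 259 CPM after HS, a 2.03-fold drop (log2FC -1.02 ± 0.13, FDR 2.51e-06). In met-2Δ it stood at 349, 394 and 450 CPM after HS, which overlapped its own 20 °C libraries (log2FC -0.33 ± 0.13, FDR 0.0463). The responses differed by 0.69 ± 0.18 (interaction, FDR 0.00422). This call was lost without WT HS library a (FDR 0.0118) or c (FDR 0.0113), without met-2Δ HS library c (FDR 0.0137), against met-2-CD (0.50, FDR 0.056) and with library totals alone (0.48, FDR 0.0171).

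The other microRNA Argonaute, alg-1, showed opposite signs in the genotypes. It had 96.4, 95.6 and 107 CPM in WT after HS, below every WT library at 20 °C (log2FC -0.79 ± 0.21, FDR 0.00209). In met-2Δ after HS it had 162, 136 and 222 CPM, above WT after HS without overlap. The heat response of met-2Δ was 0.57 ± 0.21 and did not pass (FDR 0.0296), although without met-2Δ library c of 20 °C it was 0.89 (FDR 0.00103). The difference of responses, 1.36 ± 0.29 (FDR 0.000843), was the largest of the 10 genes and the only one above 2-fold, and it passed in every fit that left out a single library. Against the met-2-CD baseline it was 0.91 (FDR 0.03). The ratio of alg-1 to alg-2 on the log2 scale of CPM, without length correction, ran from -1.88 to -1.52 in WT at 20 °C, from -1.60 to -1.28 in WT after HS, from -2.50 to -1.80 in met-2Δ at 20 °C and from -1.53 to -1.02 in met-2Δ after HS.

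Of the nuclear Argonautes, nrde-3 fell in both genotypes. For nrde-3 the WT libraries after HS had 332, 325 and 309 CPM, a 1.87-fold drop (log2FC -0.90 ± 0.066, FDR 4.1e-09). The met-2Δ libraries had 409, 423 and 416 CPM, a smaller fall (log2FC -0.25 ± 0.066, FDR 0.00559). The responses differed by 0.65 ± 0.093 (FDR 2.45e-05), and by 0.41 (FDR 0.00464) with the met-2-CD baseline. The fall in met-2Δ was lost in 7 of 15 fits without a single library, which were those without any of the 6 met-2Δ libraries (FDR 0.0127 to 0.0224) and without WT library b of 20 °C (FDR 0.0104). The heat log2FC of hrde-1 was -0.18 ± 0.11 in WT (338, 384 and 376 CPM after HS) and -0.22 ± 0.11 in met-2Δ (553, 571 and 568 CPM), and neither passed (FDR 0.115 and 0.0908). The WT value passed without met-2-CD library a (-0.26, FDR 0.00999) and against the met-2-CD baseline (-0.35, FDR 0.00683).

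The secondary-siRNA Argonautes wago-4 and wago-1 fell in met-2Δ. After HS, wago-4 had 44.2, 50.5 and 57.6 CPM in met-2Δ, 1.89-fold below the level at 20 °C (log2FC -0.92 ± 0.12, FDR 1.12e-05). In WT it had 32.1, 38.7 and 38.5 CPM after HS, which overlapped its libraries at 20 °C (log2FC -0.04 ± 0.12, FDR 0.752), whereas against the met-2-CD baseline they were lower (-0.61, FDR 0.000214). The difference of responses was -0.88 ± 0.16 (FDR 0.000275). For wago-1 the met-2Δ libraries had 619, 684 and 667 CPM after HS (log2FC -0.43 ± 0.091, FDR 0.00116) and the WT libraries 492, 578 and 558 CPM (log2FC 0.25 ± 0.091, FDR 0.0178). Its responses differed by -0.68 ± 0.13 (FDR 0.00032). With met-2-CD as baseline neither difference passed (wago-4 -0.32, FDR 0.166; wago-1 -0.10, FDR 0.59). csr-1 had 63.1, 62.4 and 62.9 CPM in WT and 75.7, 70.2 and 70.3 CPM in met-2Δ after HS, and neither response passed (log2FC 0.18 ± 0.1, FDR 0.114, and 0.11 ± 0.1, FDR 0.383).

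Of the primary Argonautes other than alg-1 and alg-2, which both fell in WT, ergo-1 and prg-1 rose in WT and rde-1 fell. ergo-1 reached 500, 510 and 539 CPM in WT after HS, above all WT libraries at 20 °C (log2FC 0.58 ± 0.11, FDR 0.000137). In met-2Δ, where it was already at 588 to 710 CPM, it had 655, 606 and 700 CPM (log2FC 0.05 ± 0.11, FDR 0.733). The difference of responses was -0.53 ± 0.16 (FDR 0.00752), but 12 of 15 fits without a single library lost this call, with FDR values up to 0.0491 (without WT library a of 20 °C), and against met-2-CD the sign turned (0.16, FDR 0.473). prg-1 had 211, 225 and 220 CPM in WT after HS (log2FC 0.32 ± 0.078, FDR 0.00125) and 295, 299 and 307 CPM in met-2Δ (0.09 ± 0.078, FDR 0.345), and the responses did not differ past the threshold (-0.23 ± 0.11, FDR 0.0813). The prg-1 rise in WT was lost without WT library a (log2FC 0.19, FDR 0.0539) or b (0.19, FDR 0.0536), without met-2-CD library b (0.24, FDR 0.0122) and without met-2Δ library a (0.24, FDR 0.0127) or b (0.24, FDR 0.0145) of 20 °C. rde-1 had 80.0, 82.9 and 73.8 CPM in WT after HS (log2FC -0.43 ± 0.055, FDR 2.35e-06) and 85.9, 86.6 and 81.8 CPM in met-2Δ (-0.13 ± 0.056, FDR 0.0711), and its responses differed by 0.31 ± 0.079 (FDR 0.00329), by 0.33 (FDR 0.00682) with the met-2-CD baseline and by 0.09 (FDR 0.348) with library totals alone.

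Over the interaction, 4 Argonautes had a higher response in met-2Δ than in WT (alg-1, alg-2, nrde-3 and rde-1) and 3 a lower one (wago-4, wago-1 and ergo-1), against 23.1% and 27% of all genes. Among the 4049 genes at or above 55.2 CPM, 44.8% were higher and 13.5% lower. The median was -0.05 over the Argonautes, -0.15 over all genes and 0.28 over the 4049. With library totals alone, the Argonaute counts were 2 and 4, those of all genes 2458 and 5111 in place of 3574 and 4175, and the median of all genes moved by -0.213.

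After heat, met-2Δ was compared with WT in libraries that do not include the WT group of 20 °C, although that group shares the filter, scaling and estimate of the spread. All 10 Argonautes had a log2FC above 0 in met-2Δ, and 6 passed: alg-1 (0.80 ± 0.21, edgeR FDR 0.00928), hrde-1 (0.62 ± 0.11, FDR 0.000711), alg-2 (0.56 ± 0.13, FDR 0.00512), wago-4 (0.48 ± 0.12, FDR 0.00699), prg-1 (0.46 ± 0.078, FDR 0.000735) and nrde-3 (0.37 ± 0.066, FDR 0.00105). In this contrast 6.59% of all genes were higher and 10.5% lower, and 14% and 5.85% of the 4049 genes at or above 55.2 CPM. None of the 10 was lower by edgeR or by DESeq2, nor at an unadjusted p below 0.05. The median log2FC was 0.41 over the Argonautes, -0.13 over all genes and 0.09 over the 4049. For these 6 genes, as for csr-1, ergo-1 and wago-1, the libraries of the genotypes did not overlap. The share of all genes without such overlap was not computed. The 4 that did not pass were ergo-1 (0.34 ± 0.11, FDR 0.0268), wago-1 (0.28 ± 0.091, FDR 0.0302), csr-1 (0.20 ± 0.1, FDR 0.136) and rde-1 (0.10 ± 0.056, FDR 0.152). With only the groups compared, 9 of the 10 passed, with ergo-1 (FDR 0.000462), wago-1 (0.00122) and csr-1 (0.00239) added. Calls rose over all genes too, to 2359 higher and 2729 lower of 14791 tested, from 1019 and 1618 in the main fit. ergo-1 also passed without met-2-CD library a (FDR 0.00264) or c (0.00909), and wago-1 without WT library c of 20 °C (0.00898). The calls of hrde-1, prg-1 and nrde-3 held in every alternative. Leaving out WT library a or c, or met-2Δ library c, of this pair of groups ended the calls of alg-1 (FDR 0.0362, 0.022 and 0.0568), alg-2 (0.0243, 0.0215 and 0.0298) and wago-4 (0.0382, 0.015 and 0.0397). Leaving out WT library b ended those of alg-1 (FDR 0.0292) and wago-4 (0.0113), met-2Δ library b those of alg-2 (0.0148) and wago-4 (0.0196), and met-2Δ library a that of alg-1 (0.0198). Without the WT libraries of 20 °C in the fit, 29 of 30 values in the contrasts that do not use them were on the same side of the threshold, and alg-1 in this contrast was not (0.83, FDR 0.0111).

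The patterns over the 5 groups were compared by the root mean square difference of mean log2(CPM + 1), each gene centred on its own mean. The nearest pairs of Argonautes were nrde-3 and alg-2 (0.088), prg-1 and ergo-1 (0.107) and nrde-3 and rde-1 (0.161), and the farthest were wago-4 and alg-1 (0.658). Over 7654 genes with a mean of at least 10 CPM, the nearest gene to wago-1 was eri-5 (0.0768), which encodes a Tudor-domain protein of the ERI complex. The nuclear pore genes npp-12 and npp-10 were nearest to prg-1 (0.0485) and ergo-1 (0.0447). The other nearest genes were Y61A9LA.1 for csr-1 (0.0312), znf-593 for hrde-1 (0.0526), apc-17 for nrde-3 (0.0303), fbxb-81 for wago-4 (0.0838), C39B5.6 for rde-1 (0.0204), dpy-21 for alg-1 (0.0797) and lin-8 for alg-2 (0.0315). These are descriptions over 5 group means from shared libraries.

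Other small-RNA genes were counted by list. Of 14 further Argonaute symbols, 10 were matched to the table. The symbol wago-3 is another name of ppw-2, which was matched and counted once. The shares of all genes given above for each contrast apply to the counts below too: 28.2% higher and 27.5% lower in met-2Δ at 20 °C, and 44% and 35.6% after HS in WT, or 18.2% and 60.0% of genes at or above 55.2 CPM. In met-2Δ at 20 °C, 5 of these were higher and 4 lower. The largest changes were falls of sago-2 (log2FC -3.28, from 17.4 to 1.78 CPM) and wago-5 (-2.79, from 2.17 to 0.302 CPM), both WAGO-family genes. Both were high only in the WT libraries of 20 °C that stand apart, with sago-2 at 0.795 to 3.38 CPM and wago-5 at 0.256 to 0.458 CPM in the other 4 groups, and in met-2-CD their log2FC was -4.44 and -3.09. After HS in WT, 4 rose and 4 fell, with sago-2 at -3.52 and wago-10 at 2.85 (0.198 to 1.46 CPM). In met-2Δ after HS compared with WT after HS, 3 were higher and 0 lower by edgeR.

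The germ granule list, which holds proteins that share compartments with germline Argonautes, had 6 of 9 genes higher and 0 lower in met-2Δ at 20 °C. The P granule genes pgl-1 (log2FC 1.23, 118 to 276 CPM) and pgl-3 (1.11, 31.2 to 67.2 CPM) changed most. After HS in WT 2 of the 9 rose and 3 fell, with glh-4, a germ granule helicase, at -1.10 and pgl-1 at 0.88. Of 13 piRNA factors, 5 were higher and 2 lower in met-2Δ, led by pid-1 (-1.33), which acts in piRNA maturation, and erh-2 (0.97), and 3 rose and 6 fell with heat in WT, led by prde-1 and pid-1 (both -1.61). Of 6 nuclear RNAi factors, 1 was higher (emb-4, 0.44) and 2 lower in met-2Δ, led by nrde-4 (-0.89), and 0 rose and 4 fell with heat in WT, led by nrde-4 (-1.39) and nrde-2 (-0.76).

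Of 10 ERI and exogenous RNAi genes, met-2Δ had 2 higher and 6 lower, led by rde-4, the double-stranded RNA binding partner of Dicer (292 to 147 CPM), and eri-5 (0.75). With heat in WT 2 rose and 7 fell, led by rde-4 (-1.49) and eri-3 (-0.74). Of 16 matched genes for the amplification of secondary siRNAs, 5 were higher and 6 lower in met-2Δ, led by rde-2 (-0.72) and rde-8 (-0.62), and 1 rose and 11 fell with heat in WT, led by rde-8 (-1.10) and rde-2 (-0.83). Of 9 matched microRNA factors, 2 were higher and 4 lower in met-2Δ, and 0 rose and 5 fell with heat in WT. The leading genes were ain-1, which encodes a GW182-type partner of ALG-1 and ALG-2 (-1.09 and -1.82), and cgh-1, a DEAD-box helicase gene (-0.89 and -1.63).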

How the data were processed

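RNA was purified from early embryos, depleted of ribosomal RNA and made into stranded libraries, per the labels. After adapter trimming (Trimmomatic), the authors aligned reads to ce10 with hisat2 in QuasR and counted reads with a unique position on the sense strand over exons of each gene. The deposited values are these whole counts, with no scaling. All 15 count columns were mapped to a group by name. Within a group, columns are told apart by the letters a, b and c and not by the labels' replicate numbers. Letters therefore name libraries here, and no label pairs them across groups.

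The main test was edgeR's quasi-likelihood test (version 4.0.16 in R 4.3.3) on the counts, with TMM scaling, filterByExpr, 15 libraries and 5 group means in 1 fit with no covariate. The study names edgeR and scaled counts by library totals, which is an alternative here. TMM, the filter and the single fit were choices of this work. Of 20392 genes, 327 had no count and 15471 were tested. Calls are Benjamini-Hochberg FDR values below 0.01 over all genes tested. Errors of log2FC are standard errors, and the biological coefficient of variation was 11.8%. The script was tested on simulated data. The chi-square per degree of freedom between replicate libraries was at least 6.63, so none were duplicates. Positions and exon lengths come from the WBcel235 annotation by identifier, not from ce10, and no position was converted.

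The members and lists were chosen with earlier results of these data known. All 10 members are named in every contrast, and from each other list the 2 genes with the largest absolute log2FC among those called, in met-2Δ against WT at 20 °C and in WT after HS. Alternatives were scaling by DESeq2 size factors or by library totals, a DESeq2 Wald test (version 1.42.0), no filter or 1 CPM in 3 libraries, only the groups compared, thinning to the smallest library, the letter as a block, each library left out, and met-2-CD as the baseline of heat. A fit without the WT libraries at 20 °C was added after seeing the data.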

Additional observations from a re-analysis of the deposited data

Results flagged for a closer look

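The response to heat differed between met-2Δ and WT, by a test of the difference itself, for 7 of the 10 Argonaute transcripts. The difference in log2 response, met-2Δ minus WT, was 1.36 for alg-1, 0.69 for alg-2, 0.65 for nrde-3 and 0.31 for rde-1, and -0.88 for wago-4, -0.68 for wago-1 and -0.53 for ergo-1 (edgeR FDR between 2.45e-05 and 0.00752). Such calls were common: 23.1% of all genes were higher and 27% lower, and 44.8% and 13.5% of genes at or above 55.2 CPM. Each of these values rests on the WT libraries at 20 °C, which stand apart. With met-2-CD at 20 °C in their place, which is a mutant baseline, nrde-3 (0.41) and rde-1 (0.33) passed. Of all 15471 genes, 815 were higher and 1372 lower with it. Of the 7 calls, 4 held in every alternative but that baseline, and 1 (nrde-3) held with the baseline too. The call was lost in 15 of 23 alternatives for ergo-1, in 4 for alg-2 and in 1 for rde-1. For rde-1 this was scaling by library totals alone (0.09, FDR 0.348).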

How the results depend on the processing

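Of the 40 calls on the Argonautes over 7 contrasts, 25 held in every fit without a single library, 22 in every alternative but the met-2-CD baseline, and 18 with that baseline too. With that baseline heat and genotype change together, so a call lost there does not tell them apart. With library totals alone, 0 Argonautes were lower in met-2Δ against WT, in met-2-CD against WT and in met-2Δ against met-2-CD, 4 rose in WT after HS, and 2 had a higher response in met-2Δ. DESeq2 size factors gave 0 lower in met-2Δ against met-2-CD, and no filter gave 1 rise in WT after HS. With only the groups compared, 9 were higher in met-2Δ against WT after HS, 0 were lower in met-2Δ against WT, 1 was higher and 0 lower in met-2Δ against met-2-CD, and 1 rose in WT after HS. In these fits 2359 of 14791 genes were higher in met-2Δ against WT after HS, and 779 of 13428 against met-2-CD. Thinning gave 1 lower in met-2Δ against WT and 0 against met-2-CD, and ended the fall of nrde-3 after HS in met-2Δ (FDR 0.0128). With met-2-CD as the baseline of heat, 1 rose (csr-1) and 6 fell (wago-4 and hrde-1 added) in WT, 2 had a higher and 0 a lower response in met-2Δ, and signs changed for wago-1 (-0.328), prg-1 (-0.05) and ergo-1 (-0.11) after HS and for ergo-1 in the difference of responses (0.158). Of all 15471 genes, that baseline gave 5564 rises and 4636 falls, and 815 higher and 1372 lower responses. The causes of these changes were not tested.

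Leaving out single libraries gave 0 to 2 lower in met-2-CD against WT, 1 to 5 higher and 0 to 1 lower in met-2Δ against met-2-CD, 1 to 3 rises in WT and 0 to 1 in met-2Δ after HS, and 3 to 7 higher in met-2Δ against WT after HS. Over all 10 genes, 69 such values lost a call, 9 gained it and none changed the sign of a called value.

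No label pairs the libraries by column letter. Correlations of deviations in 30 same-letter pairs across groups ran from -0.613 to 0.272, and 11 were over 0.1. Pairs of different letters were not compared, so these values cannot decide whether letters pair libraries. With the letter as a replicate block, 67 of 70 values kept their side of the threshold. csr-1 in met-2Δ against met-2-CD (0.41, FDR 0.0104) and nrde-3 after HS in met-2Δ (-0.25, FDR 0.0106) lost the call, and alg-1 in met-2Δ against WT gained it (-0.61, FDR 0.00978).

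Under library totals, 36 of the 50 group means moved by less than 1 SD of the replicates and 14 by more. Depth bears on small differences: thinning ended 3 calls, although no Argonaute had fewer than 853 counts in a library. The precision is also limited by 3 replicates. The WT libraries at 20 °C, which stand apart, enter 4 of the 7 contrasts, and what this does to the results was not tested.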
